A study of Mus musculus with 3 samples.

Results

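The 46 genes described here encode the WNT ligands, their receptors and their secreted modulators. They comprise 19 Wnt ligands, 12 receptors (10 Frizzleds with Lrp5 and Lrp6), 7 R-spondins and Lgr receptors, and 8 secreted inhibitors of the Sfrp and Dkk families. They were taken by gene symbol from the 27998 genes of a single-cell UMI count matrix of the mouse aorta-gonad-mesonephros region (AGM), where the first haematopoietic stem cells emerge, and all 46 symbols were found.

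The matrix covers 3 sorted populations from E10.5 embryos of 28 to 32 somite pairs, with 1 sample each and 2 droplet lanes per population. These were T1-preHSCs (Ter119-CD31+VCad+CD41lowcKit+), endothelial cells (Ter119-CD31+VCad+CD41-cKit+) and AGM niche cells (live, Ter119-). AGM regions were pooled across embryos before sorting, so no cell can be traced to an embryo, and the labels give no strain, genotype or treatment. All cells sit in 1 matrix whose barcodes carry 8 suffixes, here libraries 1 to 8, which the labels do not tie to the sorts. The matrix was therefore treated as 1 sample: no test between conditions was possible, and cell classes were set by marker genes.

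Of 9492 barcodes, 8915 were kept, with a median of 7544 UMIs per barcode, and 5568 of the kept cells passed a marker gate. Libraries 1 to 4 held nearly all niche-like cells, libraries 5 and 6 held 1871 of the 1999 endothelial-like cells, and libraries 7 and 8 held 121 of the 167 Cdh5-positive pre-HSC-like cells. Median UMIs per library ran between 6548 and 15593, and libraries 7 and 8 were the deepest. The endothelial-like class had 316 CPM (UMIs of a gene per 1000000 UMIs of the class) of Cdh5 and 2.21 CPM of Runx1, whereas the Cdh5-positive pre-HSC-like class had 172 CPM of Runx1, 306 CPM of Spi1 and 200 CPM of Cdh5. The megakaryocyte surface gene Itga2b, which encodes CD41, stood at 18.7 CPM in pre-HSC-like and 3.26 CPM in endothelial-like cells. Pairs of libraries shared 54 barcode sequences in all, with at most 7 in any of the 28 pairs.

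WNT ligands are lipid-modified secreted proteins that bind a Frizzled receptor together with Lrp5 or Lrp6, which stabilises beta-catenin and lets it act with TCF and LEF factors. R-spondins, through Lgr receptors, keep Frizzleds at the cell surface, whereas Sfrp proteins and Frzb bind WNT ligands outside the cell and Dkk1 blocks Lrp5 and Lrp6. In zebrafish, wnt16 in the somites and a Wnt9a signal received by Fzd9b are needed for blood stem cells to form. In the mouse urogenital ridge, Wnt9b made by the nephric duct acts on neighbouring mesenchyme, in which Wnt4 is then needed to form tubules.

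Promoter windows of 4 members around which the results turn are shown first. Wnt9b and Dkk1 stood out in nephric-like cells. Fzd4 was higher in endothelial-like than in pooled niche-like cells, and Sfrp2 was higher in pre-HSC-like than in endothelial-like cells. The sequences are RefSeq's, on build GRCm38.p6, and cover 250 bases upstream of the RefSeq start, written along the gene's strand. The windows of Wnt9b and Sfrp2 lie inside the annotated spans of these genes, which reach further upstream than the windows. Capitals mark letters that match a core promoter motif on either strand. The letters searched were TATAAA for the TATA box, the letters of its name for the CCAAT box, and GGGCGG for the GC box. Overlapping GC boxes near the start of Fzd4 merge into 1 run of capitals.
Wnt9b promoter (chr11:103749822-103750071, minus strand): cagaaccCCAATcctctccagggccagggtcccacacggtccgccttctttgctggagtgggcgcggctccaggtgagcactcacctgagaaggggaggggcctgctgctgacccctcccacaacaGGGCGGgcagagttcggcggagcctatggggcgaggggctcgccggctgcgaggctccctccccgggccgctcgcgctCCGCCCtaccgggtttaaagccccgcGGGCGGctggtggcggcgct
Dkk1 promoter (chr19:30549497-30549746, minus strand): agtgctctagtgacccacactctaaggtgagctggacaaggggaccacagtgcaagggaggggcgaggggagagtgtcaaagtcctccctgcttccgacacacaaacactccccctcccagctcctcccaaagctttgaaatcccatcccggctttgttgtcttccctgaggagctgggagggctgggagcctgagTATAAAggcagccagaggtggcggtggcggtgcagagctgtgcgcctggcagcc
Fzd4 promoter (chr7:89404116-89404365, plus strand): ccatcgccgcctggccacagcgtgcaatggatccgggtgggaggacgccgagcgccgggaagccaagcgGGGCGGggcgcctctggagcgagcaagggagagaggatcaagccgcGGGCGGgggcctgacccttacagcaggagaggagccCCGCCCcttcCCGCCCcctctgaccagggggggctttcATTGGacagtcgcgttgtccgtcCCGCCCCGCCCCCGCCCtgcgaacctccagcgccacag
Sfrp2 promoter (chr3:83766071-83766320, plus strand): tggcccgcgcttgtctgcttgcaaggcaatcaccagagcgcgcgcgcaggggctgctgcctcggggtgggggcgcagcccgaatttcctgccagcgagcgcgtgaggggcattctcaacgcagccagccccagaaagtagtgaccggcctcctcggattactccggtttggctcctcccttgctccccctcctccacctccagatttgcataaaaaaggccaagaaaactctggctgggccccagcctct
Of the 46 members, 30 had a window in the table. A TATA box was in 4 of the 30, against 13.0% of all 27025 windows. Dkk1 was among the 4, and its box begins 54 bases before its start. A CCAAT box was in 11 of the 30, against 34.5% of all windows, and a GC box in 22 of the 30, against 32.9% of all. Letters of a TCF/LEF site (ATCAAAG) were found in 1 of the 30 (Wnt11) and in 3.23% of all windows, those of a RUNX site (TGTGGTT) in 0 and 4.46%, and those of an ETS site (AGGAAGT) in 0 and 7.80%. The Sfrp2 window held none of the 6 motifs.

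Levels are sums of UMIs over the cells of a class, in CPM, and brackets give exact Poisson 95% intervals, which cover counting error only and not differences between embryos. Counts from the 3′ end are not scaled to transcript length, so levels were compared between classes for 1 gene and not between genes. A member was called present in a class at 10 CPM and 10 UMIs or more. Its leading class is the one of highest level among classes where it was present, and it was set apart where that class's interval lay above those of every other class. Of the 46 members, 27 were present in at least 1 of 18 classes of 30 or more cells, against 39.5% of all genes. These were 7 of 19 ligands, 9 of 12 receptors, 5 of 7 R-spondins and Lgr receptors, and 6 of 8 inhibitors. A niche class led for 26 of the 27, against 58.3% of all genes present. The endothelial-like class led for 1 of the 27 (Lrp5), against 4.91% of all genes present, and a blood class for 0, against 26.3%. The members set apart in 1 class numbered 7, against 21.7% of all genes present.

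**Figure D1:**
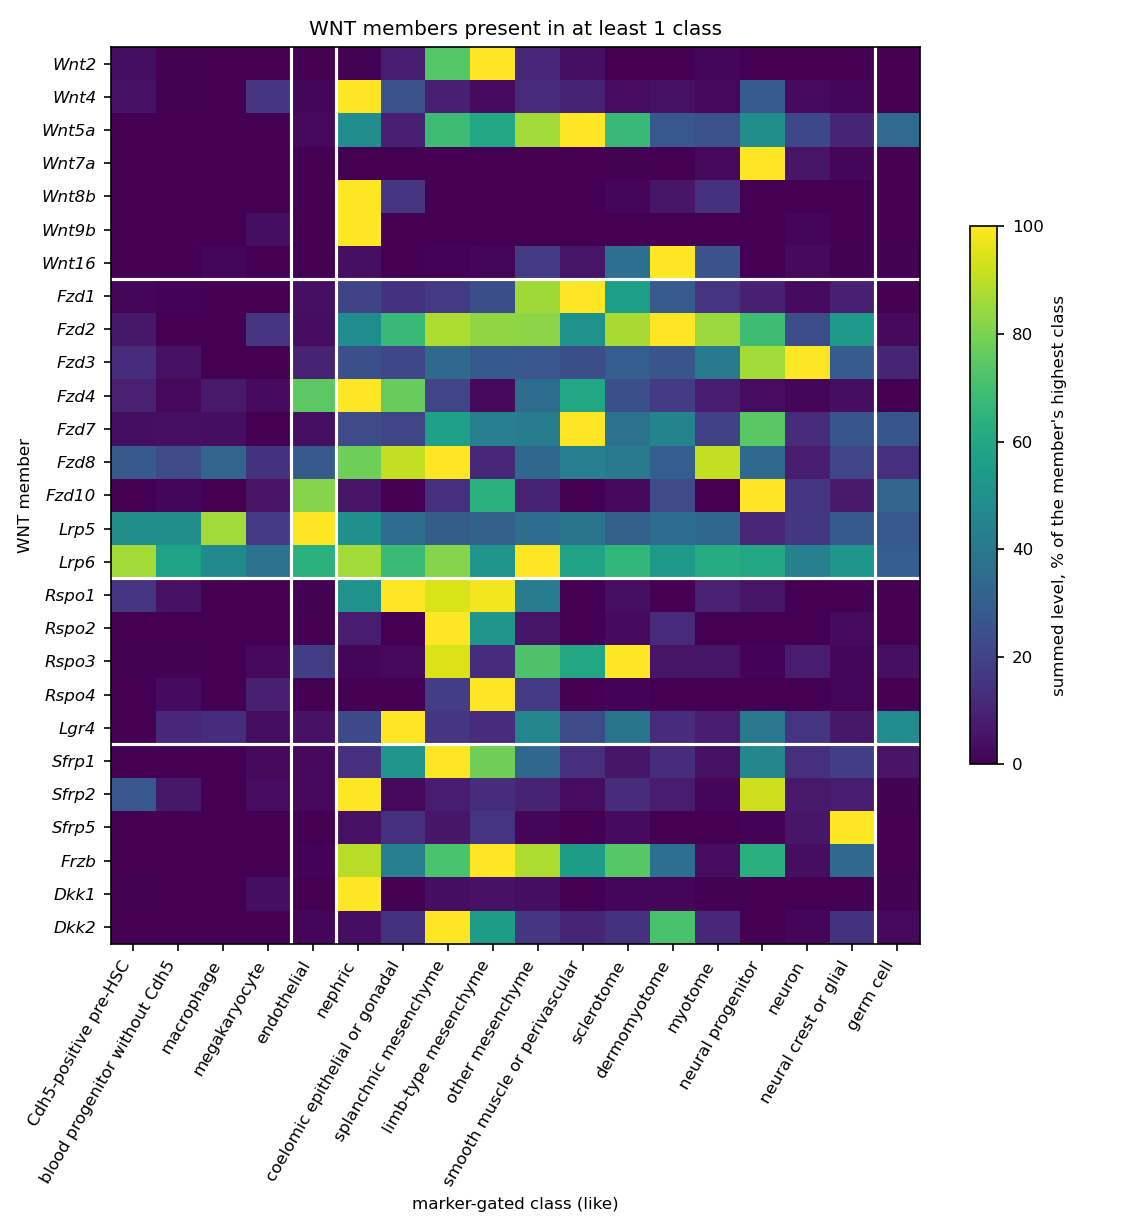
Level of the 27 members present in at least 1 class (rows: ligands, receptors, R-spondins and Lgr4, inhibitors) over 18 marker-gated classes (columns: blood, endothelial-like, niche, germ), each as a percent of that member's highest class. Ligands and inhibitors are bright in niche columns, Lrp5 is brightest in the endothelial-like column, and Lrp6 is spread over all 18 classes.

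Among ligands, Wnt9b was the most narrowly placed. It had 50 UMIs in the 131 nephric-like cells, or 43.2 CPM (32.0 to 56.9), and no other class passed 1.61 CPM, the level from 1 UMI in megakaryocyte-like cells. By library it stood at 33.2, 50.1, 42.0 and 44.0 CPM in libraries 1 to 4, all within counting error of each other. Wnt3, whose annotated span overlaps that of Wnt9b on chromosome 11, had 0 UMIs in the same nephric-like cells. Ungated cells held 3.57% of all Wnt9b UMIs in kept cells, against 58.2% of those of Wnt4.

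Wnt4, which drives tubule formation in the kidney and is made in the early gonad, also led in nephric-like cells, at 74.2 CPM (59.4 to 91.7). The next class was neural progenitor-like cells at 21.3 CPM, and coelomic epithelial or gonadal-like cells had 18.5 CPM. Its nephric level was 129, 79.1, 105 and 14.7 CPM in libraries 1 to 4. Library 4 was thus well below the other 3 libraries, and the interval of its level did not reach theirs. Wnt8b, a ligand known mainly from the forebrain, had 13 UMIs in nephric-like cells, or 11.2 CPM (5.97 to 19.2), in 12 cells. It had 0 UMIs there in library 3.

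Nephric-like cells were then split, after their values had been seen, by the duct genes Gata3 and Ret, which are also among the 10 markers of that gate. A UMI of either gene was found in 85 cells, and 46 cells had none. Wnt4 stood at 11.9 CPM (5.46 to 22.7) in cells with Gata3 or Ret, against 190 CPM (150 to 237) in cells with neither. Sfrp2, a secreted WNT antagonist, had 78.3 CPM (59.6 to 101) in cells with Gata3 or Ret, against 713 CPM (633 to 800) in those with neither. Frzb, another antagonist, had 6.64 CPM with Gata3 or Ret, against 66.6 CPM with neither. The reverse held for Wnt9b, at 54.4 CPM (39.1 to 73.8) with Gata3 or Ret against 22.2 CPM (10.2 to 42.1) with neither, although these intervals overlapped. Fzd4 had 67.7 CPM (50.4 to 89.0) with Gata3 or Ret, against 24.7 CPM (11.8 to 45.4) with neither. Dkk1 had 81.0 CPM with Gata3 or Ret and 96.2 CPM with neither, and its intervals overlapped, as did those of Lrp6 at 35.8 CPM with either gene and 37.0 CPM with neither. Cells with neither gene were the deeper ones, at a median of 9062 UMIs against 7663 in cells with Gata3 or Ret.

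Wnt4 was higher in cells without Gata3 and Ret in each of libraries 1 to 4. Cells with either gene had 0, 29.4, 8.77 and 0 CPM in libraries 1 to 4, against 288, 205, 248 and 43.9 CPM in cells with neither. Library 4 had the lowest level among the cells with neither gene, from 5 UMIs in 12 cells. Cells with neither gene were 12 of 34 nephric-like cells in library 4, against 13 of 29, 11 of 41 and 10 of 26 in libraries 1 to 3. Sfrp2 in those 12 cells stayed at 562 CPM, against 737 to 796 CPM in the other 3 libraries.

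**Figure D2:**
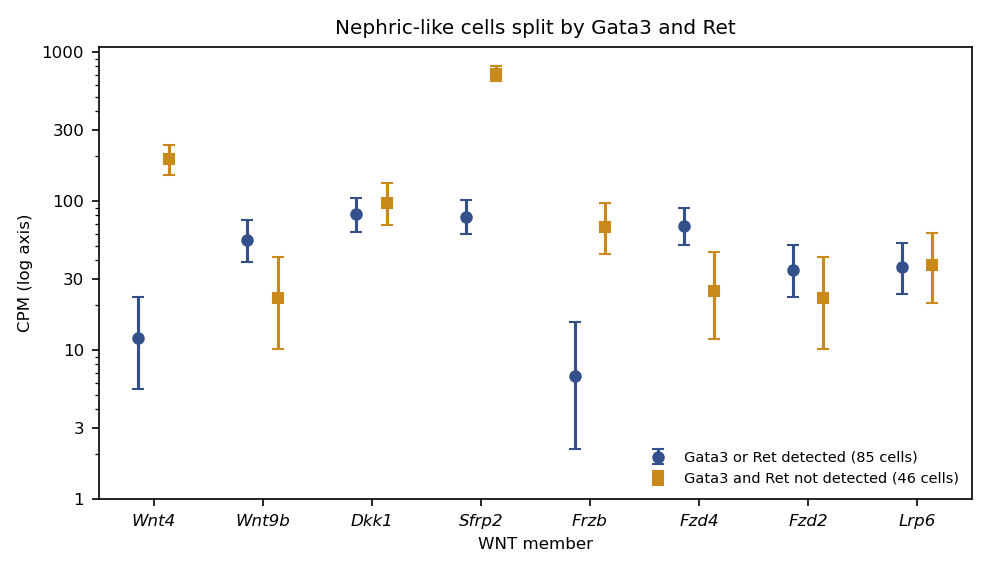
Levels of 8 members (CPM, log axis) in nephric-like cells with a UMI of Gata3 or Ret (circles, 85 cells) and in those with neither (squares, 46 cells). Points are summed levels and bars exact Poisson 95% intervals, and Wnt4, Sfrp2 and Frzb are higher in cells with neither gene while Fzd4 is higher in cells with either.

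Detection in single cells was read beside this split. Every cell was thinned to 3000 UMIs for this, which left 127 nephric-like cells. Sfrp2 was seen in 14 of the 16 cells with Wnt4 (87.5%, exact binomial 95% interval 61.7 to 98.4) and in 26.1% of the 111 cells without it. Gata3 was seen in 1 of the 16 Wnt4 cells (0.158 to 30.2) and in 45.9% of the others (36.4 to 55.7). Dkk1 was seen in 0 of the 16 (upper bound 20.6%) and in 25.2% of the others (17.5 to 34.4), and these intervals overlapped. Wnt4 was seen in 0 of the 14 cells with Wnt9b (upper bound 23.2%) and in 14.2% of the 113 without it, a difference within counting error.

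Wnt16 had its highest level in dermomyotome-like cells, the epithelial upper layer of the somite, at 129 CPM (112 to 149). Sclerotome-like cells followed at 47.3 CPM, then myotome-like cells at 33.0 CPM and other mesenchyme-like cells at 22.9 CPM, so the 3 somite classes and general mesenchyme were the classes in which it was present. Dermomyotome-like cells had 68.9, 210, 137 and 106 CPM in libraries 1 to 4, and led in each. No UMI of Wnt16 was found in 1999 endothelial-like cells or in 167 pre-HSC-like cells. Dermomyotome-like cells with a UMI of the muscle determination gene Myf5, itself a marker of that gate, had 118 CPM, against 133 CPM in those without. Wnt16 was among the 10 genes that most set dermomyotome-like cells apart, and it was no gate marker.

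Wnt2, a ligand of visceral mesoderm, had 113 CPM (100 to 127) in limb-type mesenchyme-like cells, 83.3 CPM (65.5 to 104) in splanchnic mesenchyme-like cells and 13.0 CPM in other mesenchyme-like cells. The limb-type level was 145, 140, 117 and 73.8 CPM in libraries 1 to 4. The splanchnic level rested on library 4, at 165 CPM, while libraries 1 to 3 had 42.8, 40.7 and 18.3 CPM. Most Wnt2 UMIs, 71.4%, lay in ungated cells, and ungated cells that clustered with limb-type mesenchyme had 202 CPM. The limb-type class was split, after its values had been seen, by the dorsal limb gene Lmx1b, itself a marker of that gate. Cells with a UMI of Lmx1b had 24.3 CPM (16.3 to 34.9) of Wnt2, against 199 CPM (175 to 226) in cells without. Sfrp1 followed the same line, at 39.4 CPM with Lmx1b against 159 CPM without, as did Dkk2, at 0.837 CPM with Lmx1b against 24.4 CPM without. Rspo3 was higher with Lmx1b, at 16.7 CPM against 2.44 CPM without. In limb-type cells thinned to 3000 UMIs, Sfrp1 was seen in 46.8% of 62 cells with Wnt2 and in 13.8% of 174 cells without it.

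Wnt7a, a ligand of the neural tube and limb, was set apart in neural progenitor-like cells at 24.7 CPM (19.4 to 31.2), with 1.40 CPM in neurons, and the progenitor class led in all 4 libraries. Wnt7b stood just under the threshold there, at 8.59 CPM from 25 UMIs. Wnt5a, the main ligand of non-canonical signalling, was spread over mesenchyme. It had 16.7 CPM in other mesenchyme-like, 13.3 in splanchnic, 13.1 in sclerotome-like and 11.6 CPM in limb-type cells, with overlapping intervals, and smooth muscle or perivascular-like cells had 19.4 CPM from fewer than 10 UMIs. The 12 ligands that were present in no class of 30 cells ranged between 2 UMIs (Wnt10b) and 134 UMIs (Wnt5b) over all kept cells. Wnt9a had 7 UMIs, and Wnt3a and Wnt1, roof plate ligands of the neural tube, had 10 and 35.

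**Figure D3:**
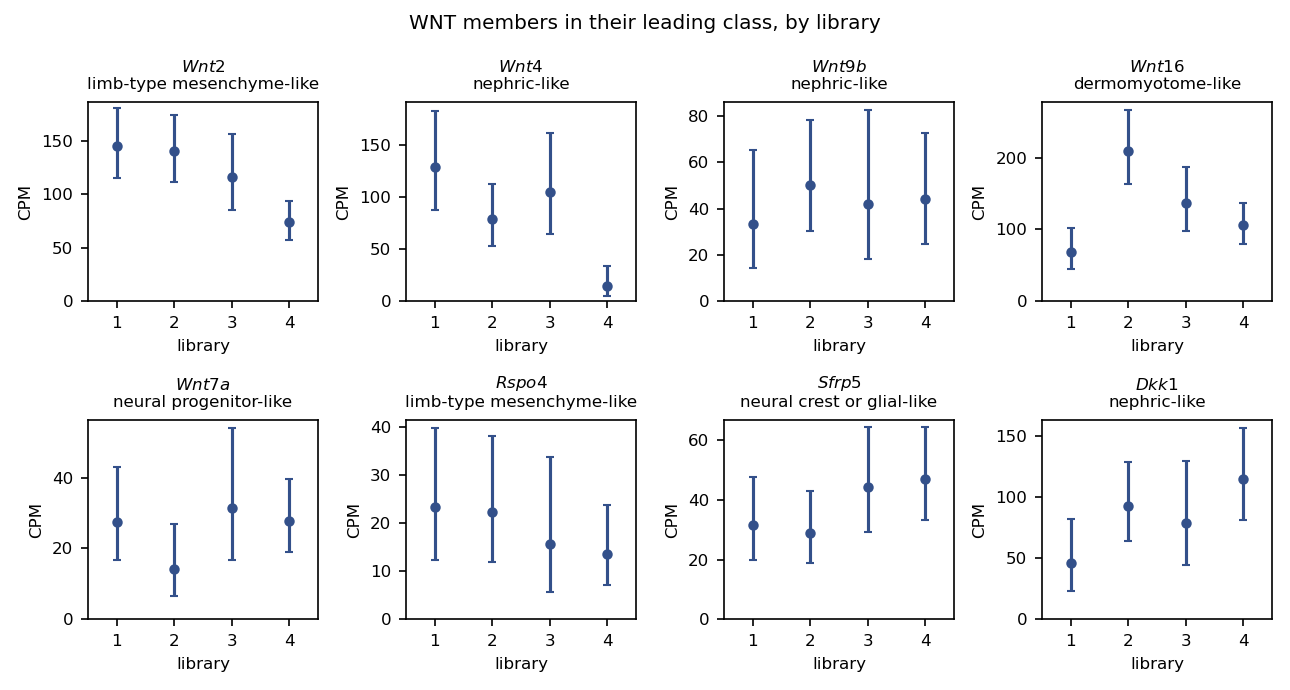
Level (CPM, each panel from 0) of 8 members in their leading class in libraries 1 to 4. Points are summed levels and bars exact Poisson 95% intervals, and Wnt4 is low in library 4 while Wnt9b differs between libraries by less than its intervals.

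Of the receptors, Lrp6, the common WNT co-receptor, was present in all 18 classes. Its level ran between 12.5 CPM in germ cell-like and 42.0 CPM in other mesenchyme-like cells, and pre-HSC-like cells had 36.1 CPM (28.7 to 44.9). Lrp5, the other co-receptor, was present in endothelial-like cells alone, at 18.9 CPM (16.9 to 21.2), although macrophage-like cells had 16.3 CPM from fewer than 10 UMIs. Fzd4, the receptor for norrin and for several WNTs in vessels, had 52.7 CPM (40.3 to 67.6) in nephric-like, 40.3 in coelomic epithelial or gonadal-like and 39.3 CPM (36.3 to 42.5) in endothelial-like cells, and these 3 levels did not differ beyond their intervals. Fzd10 had 31.6 CPM (25.5 to 38.8) in neural progenitor-like cells, 25.9 CPM (23.5 to 28.5) in endothelial-like cells, 20.2 in limb-type and 10.4 CPM in germ cell-like cells.

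Fzd2 was present in 12 classes, all of them niche classes, led by dermomyotome-like cells at 62.0 CPM (50.0 to 75.9) and lowest among those in neurons at 14.6 CPM. Fzd3, which guides axon tracts, was highest in neuron-like cells at 71.0 CPM (62.5 to 80.3) and neural progenitor-like cells at 61.2 CPM. Fzd7 was present in 10 classes and Fzd1 in 5, and both were highest in smooth muscle or perivascular-like cells, at 48.5 and 46.1 CPM. That class held 51 cells, of which 48 clustered with coelomic or gonadal cells, and Fzd1 ranged there between 11.3 and 147 CPM in the libraries with at least 8 such cells. Fzd5, Fzd6 and Fzd9 were present in no class, with 38, 123 and 64 UMIs in all kept cells.

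Neural progenitor-like cells were split, also after the values were seen, by dorsal (Pax3, Pax7) and ventral (Nkx6-1, Olig2) genes. Fzd10 had 74.7 CPM in the 81 dorsal cells, against 7.83 CPM (3.38 to 15.4) in the 117 ventral ones. Wnt4 had 40.7 CPM in dorsal against 13.7 CPM in ventral cells, and Frzb had 27.2 CPM in dorsal against 0.979 CPM in ventral cells. Sfrp2 ran the other way, at 114 CPM (93.1 to 139) in dorsal cells against 328 CPM (294 to 365) in ventral ones, and Sfrp1 had 29.4 CPM in dorsal against 78.3 CPM in ventral cells. Wnt7a, at 17.0 CPM in dorsal and 23.5 CPM in ventral cells, had overlapping intervals. Nkx6-1 is 1 of the 9 markers of the gate.

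The leading classes of the R-spondins were mesenchymal, although that of Rspo1 was not firm. Rspo3, which is needed for vessel growth in the mouse yolk sac and placenta, had 72.7 CPM (66.1 to 79.9) in sclerotome-like, 68.8 in splanchnic, 52.5 in other mesenchyme-like and 43.7 CPM in smooth muscle or perivascular-like cells. Endothelial-like cells had 13.4 CPM (11.7 to 15.3), between 9.07 and 14.01 CPM in each of the 6 libraries with at least 20 such cells. In splanchnic cells thinned to 3000 UMIs, 0 of 16 with Wnt2 held Rspo3 (exact binomial 95% upper bound 20.6%), against 19.6% of 102 cells without Wnt2, a difference within counting error. Rspo4 was set apart in limb-type mesenchyme-like cells at 18.2 CPM (13.2 to 24.4), with 13.6 to 23.3 CPM in the 4 libraries. Rspo1 stood at 11.6 CPM in limb-type and 11.1 CPM in splanchnic cells. Coelomic epithelial or gonadal-like cells had 11.8 CPM of Rspo1, from fewer than 10 UMIs. Ungated cells that clustered with that class had 19.6 CPM (13.1 to 28.2), and with Leiden clusters as classes it led for Rspo1. Rspo2 stood at 11.1 CPM in splanchnic cells, where 1 cell held 5 of its 10 UMIs. Lgr4, the R-spondin receptor present here, had 42.0 CPM (27.2 to 62.0) in coelomic epithelial or gonadal-like cells and 20.3 CPM in germ cell-like cells, while Lgr5 reached 5.84 CPM in neural progenitor-like cells and Lgr6 was near 0.

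Among inhibitors, Dkk1 was set apart in nephric-like cells, which held 100 of its 178 UMIs in kept cells, and ungated cells held 24.2%. It had 86.3 CPM (70.2 to 105) in nephric-like cells, with 45.7, 92.2, 78.7 and 114 CPM in libraries 1 to 4, against 4.13 CPM in the next class, limb-type mesenchyme-like cells. Sfrp5 was set apart in neural crest or glial-like cells at 37.7 CPM (31.03 to 45.3), with 29.1 to 46.9 CPM over 4 libraries. Sfrp2 had 300.4 CPM (269.6 to 334) in nephric-like and 277 CPM in neural progenitor-like cells. Sfrp1 had 128 CPM (105 to 153) in splanchnic, 99.9 in limb-type, 67.2 in coelomic epithelial or gonadal-like and 59.8 CPM in neural progenitor-like cells. Frzb was present in 8 niche classes, highest in limb-type cells at 30.9 CPM, and Dkk2 had 23.3 CPM in splanchnic and 16.7 CPM in dermomyotome-like cells. Sfrp4 and Dkk3 were present in no class, with 15 and 177 UMIs in all kept cells.

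Endothelial-like cells were compared with all 12 niche classes together, to ask which members differ between the vessel lining and its surroundings as a whole. A gene was tested where either side had 10 CPM and 10 UMIs, and it was called where the ratio of (CPM + 5) was at least 2-fold and had the same direction in every library with 20 cells of both sides. Here that covered libraries 1 to 5. With 1 sample per sort this is a rule of size and no p-value was computed. Of 15 members tested, 3 were called higher in endothelial-like cells, against 7.55% of all genes tested, and 9 were called lower, against 8.21%. The median log2 ratio of the 15 was -1.62, against -0.11 for all 8247 genes tested.

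The 3 higher members were receptors. Single niche classes still reached the endothelial-like level of Fzd4 (nephric-like and coelomic epithelial or gonadal-like cells) and of Fzd10 (neural progenitor-like cells). Endothelial-like cells had 39.3 CPM (36.3 to 42.5) of Fzd4, against 9.71 CPM (8.56 to 10.99) in niche cells (log2 ratio 1.59). By library, endothelial-like cells had 32.8 to 63.5 CPM of Fzd4 in the 6 libraries with 20 or more of them. Fzd10 had 25.9 CPM (23.5 to 28.5) in endothelial-like cells, against 7.38 CPM (6.38 to 8.499) in niche cells (log2 ratio 1.32), with 17.7 to 63.5 CPM over the same 6 libraries. Lrp5 had 18.9 CPM (16.9 to 21.2) in endothelial-like cells, against 5.51 CPM (4.64 to 6.48) in niche cells (log2 ratio 1.19). Libraries 5 and 6 alone gave log2 ratios of 1.14 for Fzd4, 2.05 for Fzd10 and 0.96 for Lrp5. The 42 niche-like cells there held only 6, 1 and 3 UMIs of these genes, so the size of these ratios is uncertain. At 0.96, Lrp5 fell under the 2-fold rule there. A UMI of Fzd4 was found in 24.8% of endothelial-like cells of those 2 libraries and in 0 of 212 germ cell-like cells of the same libraries (exact binomial 95% upper bound 1.72% of cells with a UMI, which does not limit the share that express the gene). Fzd10 was found in 15.4% of those endothelial-like cells and in 8.49% of the germ cell-like cells.

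The 9 lower members were 1 ligand, 4 Frizzleds, Lgr4 and 3 inhibitors. Wnt16 had 0 UMIs in endothelial-like cells, against 23.3 CPM in niche cells, which makes it at least 126-fold lower, from the floor of 3 counts over the class. Fzd2 had 2.03 CPM in endothelial-like cells, against 43.0 CPM in niche cells. Endothelial-like cells had 7.13 CPM of Fzd3, 1.97 CPM of Fzd7 and 1.84 CPM of Fzd1, against 32.3, 18.2 and 13.4 CPM in niche cells. Among inhibitors, Sfrp2 had 6.09 CPM in endothelial-like cells, against 66.9 CPM in niche cells. Sfrp1, Frzb and Lgr4 had 2.83, 0.307 and 1.91 CPM in endothelial-like cells, against 33.9, 16.8 and 10.9 CPM in niche cells. The size of some differences varied by library. The log2 ratio of Fzd3 was -2.32, -0.16, -1.15, -0.49 and -2.24 in libraries 1 to 5. That of Fzd1 ran from -0.53 in library 1 to -2.24 in library 5, and that of Lgr4 from -0.24 in library 1 to -1.70 in library 4. Lrp6, at 26.8 CPM in endothelial-like cells against 25.9 CPM in niche cells, did not differ beyond counting error. Rspo3 (log2 ratio -0.73) was not called. Wnt2, at 0.123 CPM in endothelial-like cells against 14.7 CPM in niche cells, was not called because its direction did not hold in library 5. Its log2 ratio was 0.04 there, against -1.62 to -2.14 in libraries 1 to 4. Libraries 5 and 6 together held 2 UMIs of Wnt2 in endothelial-like and 1 UMI in niche cells, too few to give a direction.

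**Figure D4:**
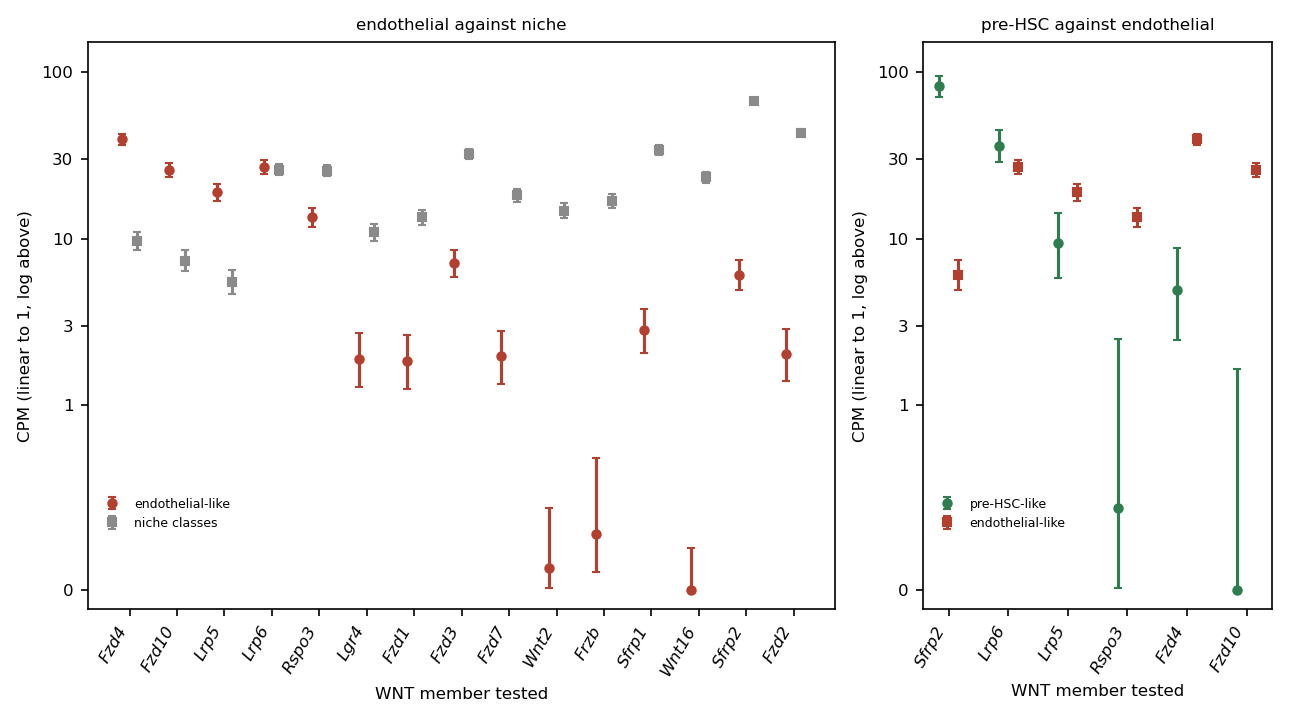
Levels (CPM, linear to 1 and logarithmic above) of the members tested, with exact Poisson 95% intervals. The left panel sets endothelial-like cells (circles) beside niche classes (squares) for 15 members, and the right panel sets Cdh5-positive pre-HSC-like cells (circles) beside endothelial-like cells (squares) for 6. Fzd4, Fzd10 and Lrp5 stand higher in endothelial-like cells than in niche classes, and Sfrp2 alone is called higher in pre-HSC-like cells.

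Cdh5-positive pre-HSC-like cells, which carry blood genes beside the endothelial cadherin, were then compared with endothelial-like cells. Of 6 members tested, 1 was called higher in pre-HSC-like cells, against 5.9% of all genes tested, and 3 were called lower, against 9.38%. No library held 20 cells of both classes, so the check of direction by library had no part in these calls. The 167 pre-HSC-like cells were deeper, with a median of 13006 UMIs against 7539 in endothelial-like cells.

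Sfrp2 was the member called higher. It had 184 UMIs in pre-HSC-like cells, or 82.0 CPM (70.6 to 94.7), against 99 UMIs, or 6.09 CPM (4.95 to 7.41), in endothelial-like cells (log2 ratio 2.97). Pre-HSC-like cells had 146, 97.0, 98.2 and 59.3 CPM in libraries 5 to 8. Endothelial-like cells had 4.53 to 13.3 CPM in libraries 1 to 6, and 52.1 CPM in library 8, from 10 UMIs in 11 cells. Within libraries 5 and 6, where most endothelial-like cells lie, the levels were 123 CPM in 35 pre-HSC-like cells and 5.33 CPM in 1871 endothelial-like cells (log2 ratio 3.63). In those libraries a UMI of Sfrp2 was found in 45.7% of pre-HSC-like, 3.37% of endothelial-like and 1.42% of germ cell-like cells, at medians of 7559, 7481 and 8135 UMIs. In libraries 7 and 8 it was found in 57.9% of pre-HSC-like cells and in 3 of 17 macrophage- and megakaryocyte-like cells (17.6%, exact binomial 95% interval 3.799 to 43.4). Blood progenitor-like cells without Cdh5 had 19.7 CPM of Sfrp2 and macrophage-like cells had 0 UMIs. The former class was mixed: of its 143 cells, 64 clustered as blood progenitors without Cdh5, 62 with megakaryocytes and 17 with macrophages. Pre-HSC-like cells with a UMI of Procr, a surface gene of stem cell precursors, had 94.7 CPM (77.7 to 114) of Sfrp2. Those without had 68.9 CPM (54.3 to 86.2), and these intervals overlapped. With cells gated after thinning to 3000 UMIs, Sfrp2 had 9 UMIs in 32 pre-HSC-like cells, or 93.8 CPM, against 7.62 CPM in endothelial-like cells, and the call was lost to the minimum of 10 UMIs.

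The 3 lower members were Fzd4, Fzd10 and Rspo3. Fzd4 had 4.90 CPM (2.45 to 8.77) in pre-HSC-like cells, against 39.3 CPM in endothelial-like cells (log2 ratio -2.16), with 7.31, 8.08, 5.31 and 4.43 CPM of it in pre-HSC-like cells of libraries 5 to 8. Fzd10 had 0 UMIs in pre-HSC-like cells, against 421 UMIs in endothelial-like cells, and was at least 19.4-fold lower from the same floor of 3 counts over the class. Rspo3 had 1 UMI in pre-HSC-like cells, against 218 UMIs in endothelial-like cells, or 0.446 CPM in pre-HSC-like against 13.4 CPM in endothelial-like cells. The co-receptors were not called. Lrp5 had 9.36 CPM in pre-HSC-like cells, against 18.9 CPM in endothelial-like cells, and Lrp6 had 36.1 CPM in pre-HSC-like cells, against 26.8 CPM in endothelial-like cells. Within libraries 5 and 6 both classes had 26.9 CPM of Lrp6. Fzd9, the mouse gene whose zebrafish counterpart was named above, had 3.57 CPM from 8 UMIs in pre-HSC-like cells, against 0.246 CPM from 4 UMIs in endothelial-like cells, both under the minimum for the test.

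**Figure D5:**
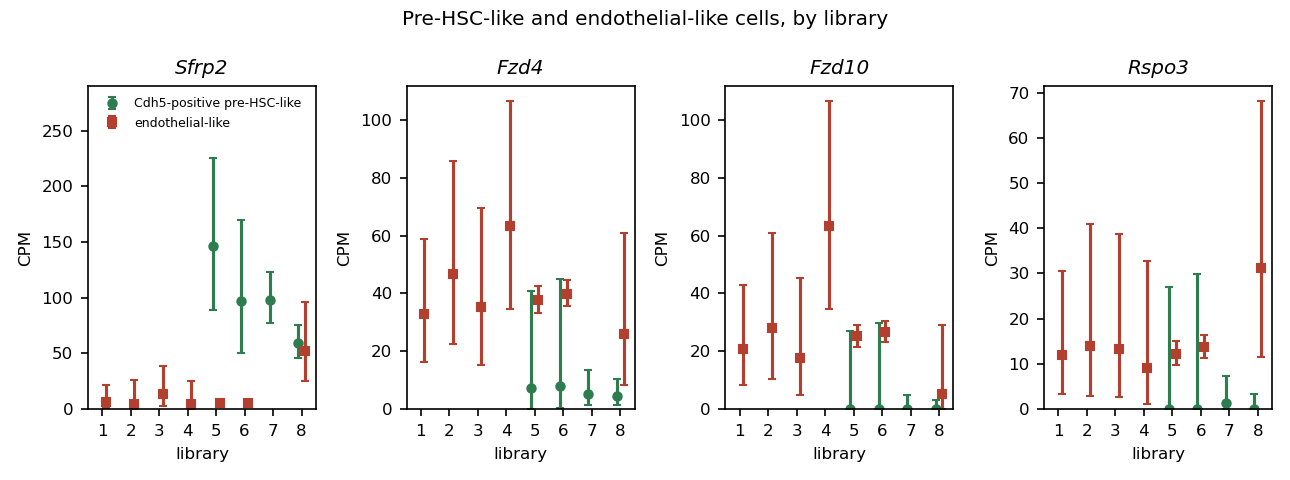
Levels (CPM, each panel from 0) of Sfrp2, Fzd4, Fzd10 and Rspo3 in Cdh5-positive pre-HSC-like cells (circles) and endothelial-like cells (squares), by library, for libraries with at least 8 cells of the class. Bars are exact Poisson 95% intervals, and Sfrp2 is higher in pre-HSC-like cells of libraries 5 and 6, while in library 8 the 11 endothelial-like cells stand near the pre-HSC-like ones.

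Arterial-like cells, the side of the endothelium from which stem cells bud, were compared with venous-like cells within the endothelial gate. Of 5 members tested, 0 were called higher, against 3.64% of all genes tested, and 0 lower, against 6.67%. The arterial gate caught 31 cells, with a median of 6033 UMIs against 7859 in 1466 venous-like cells, and 17 of the 31 fell in an endothelial cluster. Fzd4 had 53.2 CPM (26.6 to 95.2) in arterial-like and 42.3 CPM in venous-like cells, and Rspo3 had 19.3 CPM (5.27 to 49.5) in arterial-like against 14.6 CPM in venous-like cells. The intervals of the 5 members tested overlapped between the sides. Dkk2, a secreted modulator, was under the minimum of 10 UMIs and is named after its values were seen. It had 6 UMIs in arterial-like cells, or 29.01 CPM (10.6 to 63.2), against 0 UMIs in venous-like cells (upper bound 0.3 CPM), and all 6 UMIs lay in libraries 5 and 6.

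The rest of the pathway was read over 7 further lists. Most held few tested genes, so the counts describe genes and not lists. Over all genes tested, 7.55% were called higher and 8.21% lower in endothelial-like against niche cells. In endothelial-like against niche cells, 1 of 5 tested co-receptors and other WNT receptors was called higher. This was Adgra2, a vascular co-receptor for Wnt7a and Wnt7b, at 32.8 CPM in endothelial-like cells against 10.1 CPM in niche cells. Among the niche classes, smooth muscle or perivascular-like cells had 31.5 CPM of Adgra2, near the endothelial-like level. Ror2, a Wnt5a receptor, was called lower in that list. Called lower too were 2 of 3 planar polarity genes, Celsr2 and Vangl2, at 1.91 and 17.1 CPM in endothelial-like cells against 26.2 and 47.1 CPM in niche cells. So were 3 of 11 intracellular pathway genes (Pygo1, Dvl2 and Bcl9) and 2 of 5 feedback and target genes. Of these, Axin2 and Nkd2 had 2.40 and 1.91 CPM in endothelial-like cells, against 14.1 and 17.5 CPM in niche cells. All 3 other extracellular modulators tested were called lower, among them the heparan sulphate proteoglycan Gpc3 at 3.26 CPM in endothelial-like against 161 CPM in niche cells. None of the 3 TCF and LEF factors tested was called, and Lef1 had 35.7 CPM in endothelial-like cells against 33.3 CPM in niche cells. The carrier Wls, needed to secrete WNTs, had 36.8 CPM in endothelial-like and 54.7 CPM in niche cells and was not called. Within libraries 5 and 6 Axin2 had 2.47 CPM in endothelial-like and 2.48 CPM in niche cells, the second from 1 UMI.

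In pre-HSC-like against endothelial-like cells, 2 of 3 TCF and LEF factors were called lower, against 9.38% of all genes tested. So were 3 of 3 feedback and target genes, with Lef1 on both lists. Lef1 had 1 UMI in pre-HSC-like cells, against 580 UMIs in endothelial-like cells, or 0.446 CPM in pre-HSC-like against 35.7 CPM in endothelial-like cells. Tcf7l1, which represses WNT targets, also had 1 UMI in pre-HSC-like cells, against 33.1 CPM in endothelial-like cells. Ccnd1, a cell cycle gene and WNT target, and the feedback inhibitor Nkd1 had 13.8 and 2.67 CPM in pre-HSC-like cells, against 249.2 and 19.2 CPM in endothelial-like cells. None of the 10 intracellular pathway genes tested was called, and Ctnnb1, which encodes beta-catenin, had 187 CPM in pre-HSC-like and 232 CPM in endothelial-like cells. Adgra2 and Vangl1 were also called lower, at 11.6 and 5.35 CPM in pre-HSC-like cells against 32.8 and 17.6 CPM in endothelial-like cells. Wls had 37.9 CPM in pre-HSC-like and 36.8 CPM in endothelial-like cells.

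In arterial-like against venous-like cells, 4 genes of these lists were called. Over all genes tested, 3.64% were called higher and 6.67% lower there. Sost, a secreted inhibitor best known from bone, was higher, at 48.4 CPM (23.2 to 88.9) from 10 UMIs in arterial-like cells against 7.56 CPM in venous-like cells. Adgra2, Tcf7l1 and Ccnd1 were lower, at 9.67, 14.5 and 91.9 CPM in arterial-like cells against 34.1, 36.02 and 251 CPM in venous-like cells. The first pair of these rested on 2 and 3 UMIs in arterial-like cells. Of the 31 arterial-like cells, 12 fell in the Cdh5-positive pre-HSC cluster class, and their part in these values was not tested. No gene of the secretion, planar polarity or intracellular lists was called.

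Members present were also read by class, without the share of all genes present in each class, which is not given here. No ligand was present in any of the endothelial-like, blood or germ cell-like classes, which together covered 2640 cells. In macrophage- and megakaryocyte-like cells, with 550686 and 622205 UMIs, the minimum of 10 UMIs was stricter than 10 CPM. Absence there thus depends in part on class size. Endothelial-like cells had 4 receptors present (Fzd4, Fzd10, Lrp5, Lrp6) and Rspo3, and pre-HSC-like cells had Lrp6 and Sfrp2. Nephric-like cells had 3 ligands, 5 receptors and 4 inhibitors present, and other mesenchyme-like cells had 3, 6 and 3. Ungated cells, 37.5% of those kept, held between 3.57% (Wnt9b) and 71.4% (Wnt2) of the UMIs of the 27 members.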

How the data were processed

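The authors deposited 1 matrix of raw UMI counts per gene and barcode (10x Genomics droplets, 3′ ends) for all sorts together. Per the submitters' processing notes, Cell Ranger and build mm10 were used, and versions and further settings are not given in the sources used here. Doublet handling before deposit is also not given.

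Cells entered with 1000 or more UMIs, 500 or more genes and no more than 10% of UMIs from mitochondrial genes (9383 cells). In each library the 5% of cells with the largest share of simulated doublets among 30 neighbours were then removed (468 in all). Gates counted, in each cell, the markers with a UMI against 21 class lists with thresholds of 3 to 6 markers, and a cell took the passed gate with the largest share of its markers detected. The haematopoietic gate took precedence over the endothelial one and was divided by a UMI of Cdh5, and ties stayed ungated. The gene table held 217 of the markers and lacked 1, Spink3. Arterial-like cells needed 3 arterial markers and at most 2 venous ones, and venous-like cells 3 venous and at most 1 arterial. Counts were summed per class. Intervals are exact Poisson or Clopper-Pearson at 95%, and these and the floor of 3 counts cover counting error only. With 1 sample per sort no p-value was computed. The size rules were also run on simulated cells drawn from pooled class profiles. These cells differed between libraries in depth only, so that run cannot speak to other differences between libraries. Python 3.11.15, numpy 2.4.6, scipy 1.17.1, scikit-learn 1.9.0 and leidenalg 0.10.2 were used.

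Every member present in a class, and every member called, was to be named, with up to 3 called genes per pathway list. The members and lists were chosen with earlier results of these data known. Splits within classes and detection of gene pairs were added after values had been seen. Coordinates are on GRCm38, which is mm10.
Alternatives were another pseudocount, minimum level, barcode filter, gate threshold or scaling, Leiden clusters as classes, no doublet removal, equal library weights, each library left out, germ cells among the niche, and thinning to 3000 UMIs, which dropped 366 cells.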

Additional observations from a re-analysis of the deposited data

Results flagged for a closer look

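Wnt6, a ligand of surface ectoderm, was present in no class of 30 or more cells, and reached its highest level outside them, in 4 surface ectodermal-like cells. These held 11 UMIs, or 305.8 CPM (exact Poisson 95% interval 152.6 to 547), with a UMI in 4 of 4 cells, 1 from each of libraries 1 to 4. The next level was 3.19 CPM in myotome-like cells, and no upper bound among the 18 classes of 30 or more cells passed 9.36 CPM.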

How the results depend on the processing

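Alternatives changed 1 choice at a time, and none turned the direction of a member called in a comparison. Lrp6, which was not called, had log2 ratios of 0.04 for endothelial-like against niche and 0.37 for pre-HSC-like against endothelial-like cells, and of -0.017 and -0.0027 in libraries 5 and 6 only. In endothelial-like against niche cells, 5 members were called lower at a minimum of 20 CPM, against 9 as reported. In libraries 5 and 6 only (added after seeing the data, with 42 niche-like cells), 5 were called lower. These included Wnt4, which was not among the 9, at 1.07 CPM in endothelial-like against 32.3 CPM in niche cells. Lrp5, at a log2 ratio of 0.96 there, was not called higher. When any library was left out, 3 stayed the number called higher and 9 to 10 were lower. For pre-HSC-like against endothelial-like cells, 0 were higher after thinning to 3000 UMIs, where gates were read on the thinned counts and Sfrp2 had 9 UMIs in 32 pre-HSC-like cells (log2 ratio 2.97), under the minimum of 10. Leaving out any library gave 1 to 1 higher and 3 to 3 lower. For arterial-like against venous-like cells, 3 were higher with no minimum level, 1 was lower with 1 marker more per gate and 1 without library 6, so leaving out a library gave 0 to 0 higher and 0 to 1 lower. Equal weights per library gave no value there, since no library held more than 16 arterial-like cells. Members present numbered 46 with no minimum level or count, and 25 to 27 without a library. Members set apart numbered 11 with Leiden clusters as classes, and 7 to 8 without a library. The leading class was the same for 18 of 26 members with Leiden clusters, 19 of 25 with 1 marker fewer per gate and 19 of 25 without library 4. Scaling by TMM moved all log2 ratios by -0.19 for endothelial-like against niche and 0.20 for arterial-like against venous-like cells. Where no cause is given here, the cause was not tested. No paired analysis was possible because each sort has 1 sample and no label ties a library to a sort.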
